A study of Homo sapiens with 6 samples.

Results

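The 10 genes described here encode alpha- and beta-tubulin isotypes: TUBA1A, TUBA1B and TUBA1C for alpha-tubulin, and TUBB, TUBB2A, TUBB2B, TUBB3, TUBB4A, TUBB4B and TUBB6 for beta-tubulin. They were chosen by gene symbol, with earlier results of these data known, and all 10 were found among the 16832 symbols listed in each library. RNA sequencing had been done on U251, an established human glioma cell line of wild-type genotype per the labels. The 3 SLCDS libraries came from cells treated for 18 days with SLCDS, a small-molecule combination not spelled out in the labels, and the 3 Control libraries from U251 cells given PBS. Cells with SLCDS are named neuronal-like in the title, and the question taken here is whether tubulin mRNA differs between the groups. The labels give no culture time for Control, so time in culture and SLCDS cannot be told apart. Nothing in them says that the replicates came from separate cultures, so p-values measure only the spread between these samples, which may be technical.

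Alpha- and beta-tubulin pair into the dimers from which microtubules are built. Vertebrates carry several genes for each, whose products are alike in the body of the protein and differ most in the acidic tail at the carboxyl end, where enzymes add or remove glutamates and the last tyrosine of alpha-tubulin. TUBB3 is known as the beta-tubulin of neurons and is widely used as an early neuronal marker, although glioma cells express it too. TUBB2A, TUBB2B, TUBB4A and TUBA1A are also abundant in brain, whereas TUBB, TUBB4B, TUBB6, TUBA1B and TUBA1C are expressed in many tissues.

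The last 60 bases of the coding sequence are shown for 6 beta-tubulin genes because they encode the tail by which the isotypes differ and because they show how nearly TUBB2A and TUBB2B match. Sequences are from GENCODE release 29 transcripts, 5′ to 3′, ending with the stop codon. Capitals mark the glutamate codons.
TUBB3: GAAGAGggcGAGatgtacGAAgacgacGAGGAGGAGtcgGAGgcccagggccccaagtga
TUBB: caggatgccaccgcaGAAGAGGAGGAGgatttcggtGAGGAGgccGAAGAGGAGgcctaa
TUBB4A: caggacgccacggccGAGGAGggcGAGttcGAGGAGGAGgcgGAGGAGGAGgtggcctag
TUBB4B: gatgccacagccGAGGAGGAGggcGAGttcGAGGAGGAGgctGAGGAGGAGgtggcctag
TUBB2A: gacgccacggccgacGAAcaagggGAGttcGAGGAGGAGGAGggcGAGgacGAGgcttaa
TUBB2B: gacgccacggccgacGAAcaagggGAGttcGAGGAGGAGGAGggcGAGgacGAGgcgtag

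TUBB3 had 8 glutamate codons there and TUBB4B had 10. Over the whole coding sequence TUBA1A and TUBA1B were 97.2% identical and TUBB2A and TUBB2B 98.1%, while TUBB4A and TUBB4B were 87.3% and TUBB3 and TUBB 81.7% identical. How reads that fit several copies were assigned is not given in the sources used here, so the split within TUBA1A, TUBA1B and TUBA1C and within TUBB2A and TUBB2B is uncertain. Of the 100-base windows of the transcript, 18.3% in TUBA1A, 37.2% in TUBA1B, 11.5% in TUBA1C, 56.4% in TUBB2A and 46.2% in TUBB2B also occurred in a transcript of another gene. In TUBB4A the share was 0.0% at 100 bases and 6.0% at 50 bases. For TUBB3 it was 89.0% at 100 bases, all of it shared with AC092143.1, a protein-coding gene annotated over TUBB3 on the same strand and not listed in the files, and 5.1% with other isotypes. TUBA1A and TUBA1C overlap on opposite strands. TUBB2B, TUBB4B and TUBB6 overlap PSMG4, FAM166A and AFG3L2, in that order, on the opposite strand. TUBB4A, TUBB3, TUBB, TUBA1B and TUBA1C overlap antisense genes that are not listed in the files. Whether counting used strand is not given.

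Expression values are FPKM, fragments scaled to transcript length and library size, so that levels of different genes can be compared. The steps between low values corresponded to about 16300000 to 17300000 fragments per library. At that depth the lowest TUBB4A value stood for about 98 fragments, a counting error of 10.1%, and the lowest TUBA1A value for about 12431 fragments, an error of 0.9%. Control replicate 3 stood apart from the other libraries: its Pearson correlation with the other controls over genes, which are not independent replicates, was 0.9765 and 0.9767 against 0.9969 between those 2. In Control replicate 3 the transcripts shorter than the median length of 3462 bases were higher than in the other controls, with a median difference of 0.24 on the log2(FPKM + 1) scale, and the longer ones lower (-0.21). All 10 tubulin transcripts are shorter than that median, and all 10 had their highest control value in Control replicate 3, which was the highest of the controls for 47.0% of tested genes. The median difference of the 10 was 0.33, against 0.02 over all tested genes. Its part in the tubulin differences was not tested, and results are given with and without that library.

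TUBB4A rose in SLCDS and was the only one of the 10 genes called over all libraries. Its levels were 6.80, 7.26 and 6.98 FPKM in SLCDS and 3.36, 2.36 and 3.37 FPKM in Control. Every SLCDS library lay above every Control library, and Control replicate 3 was not out of line with Control replicate 1. TUBB4A, a beta-tubulin abundant in brain and in myelinating glia, went from 3.03 ± 0.581 to 7.01 ± 0.230 FPKM (SD, n = 3 each), a ratio of means of 2.31. The log2 fold change on log2(FPKM + 1) was 1.00 (SE 0.12; limma, adjusted p = 0.00353), a scale that understates the change of low genes. It was called in 19 of 19 alternative settings, with limma adjusted p values of 4.3e-05 to 0.0282. TUBB4A remained the least abundant of the 10 genes in both groups. In bulk RNA, a change in the share of cells that express a gene and a change in its RNA per cell cannot be told apart.

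The 1 called gene of 10 tested stands against a background of 6.09% of the 11506 tested genes called, 4.28% higher and 1.82% lower. A gene was called at an adjusted p under 0.05 in limma, a linear model fitted over all genes. Group ranges did not overlap for 4 of the 10, TUBB4A, TUBB3, TUBA1A and TUBA1B, against 29.1% of all tested genes. Without Control replicate 3, 6 of the 10 were called, 4 higher and 2 lower, against a background of 27.7% (16.0% higher and 11.8% lower). With each library's trend with transcript length and GC content removed, 5 of the 10 were called. TUBB4A and TUBB4B were higher, where the background was 9.32%, and TUBB3, TUBA1A and TUBA1B were lower, where it was 8.82%. The 10 genes had a median log2 fold change of -0.03, or 0.05 without Control replicate 3, beside 0.00 over all tested genes in both fits.

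**Figure D1:**
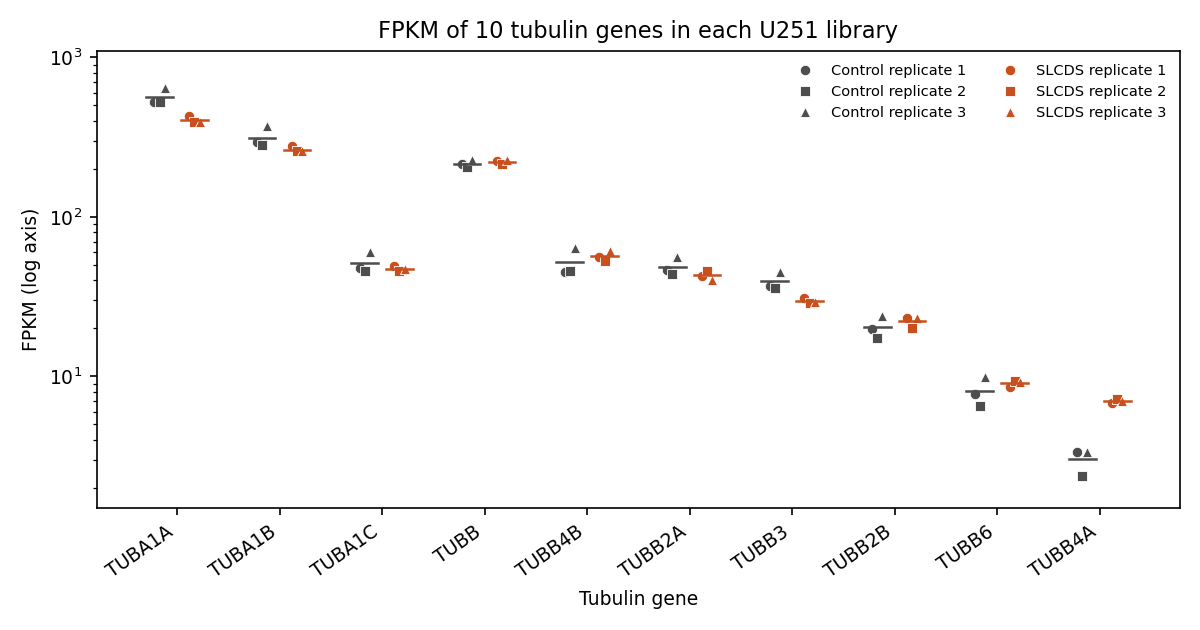
FPKM (log axis) of the 10 tubulin genes in each library, with Control in grey, SLCDS in orange, symbols for replicates and bars for group means of 3 libraries. TUBB4A lies at 6.80 to 7.26 FPKM in SLCDS and 2.36 to 3.37 FPKM in Control, and the triangle of Control replicate 3 is the highest grey point for all 10 genes.

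Among the alpha-tubulin genes, TUBA1A, the isotype abundant in developing brain, had the lowest SLCDS values relative to Control. It stood at 428, 391.3 and 390.5 FPKM in SLCDS and at 528.6, 527.4 and 642.3 FPKM in Control. The groups did not overlap, and Control replicate 3 was the highest library. The log2 fold change was -0.48 (SE 0.12; limma, adjusted p = 0.0562), short of the threshold over all libraries. Without Control replicate 3 it was -0.39 (limma, adjusted p = 0.000239), so TUBA1A passed there with a smaller difference and a smaller SE (0.05 against 0.12). It was called lower in 7 of 19 alternative settings.

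TUBA1B, the alpha-tubulin of most tissues, measured 277.1, 258.1 and 257 FPKM in SLCDS and 292.8, 280.6 and 368.9 FPKM in Control. The groups did not overlap, but the highest SLCDS library lay close under the lowest Control library. The log2 fold change was -0.24 over all libraries (limma, adjusted p = 0.36) and -0.12 without Control replicate 3 (limma, adjusted p = 0.0753). TUBA1C, closely related to TUBA1B, measured 49.3, 45.8 and 46.9 FPKM in SLCDS and 47.9, 45.5 and 60.1 FPKM in Control, with the groups overlapping. Its log2 fold change was -0.10 over all libraries (limma, adjusted p = 0.7) and 0.02 without Control replicate 3 (limma, adjusted p = 0.811), so its sign rested on that library.

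TUBB3, the neuronal beta-tubulin, was at 30.8, 28.7 and 29.1 FPKM in SLCDS and at 36.9, 36 and 45.3 FPKM in Control. All 3 SLCDS libraries lay below all 3 Control libraries. The difference of -0.40 on the log2 scale (SE 0.10; limma, adjusted p = 0.0671) was short of the threshold, and without Control replicate 3 TUBB3 was called lower (log2 fold change -0.30, SE 0.05; limma, adjusted p = 0.00109). TUBB3 was called lower in 6 of 19 alternative settings and higher in none of them, and its log2 fold change lay between -0.46 and -0.30 over those 19. At these levels TUBB3 was the seventh most abundant of the 10 genes in both groups.

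TUBB, the main beta-tubulin of dividing cells, was the most abundant beta gene and hardly differed. It measured 225.3, 213.6 and 226 FPKM in SLCDS and 215.1, 205.8 and 226.5 FPKM in Control, and the groups overlapped. Its log2 fold change was 0.04 (SE 0.08; limma, adjusted p = 0.849) and 0.07 without Control replicate 3 (limma, adjusted p = 0.22), and no alternative setting called it.

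TUBB4B, the close relative of TUBB4A that is expressed in many tissues, measured 56.4, 52.9 and 61.2 FPKM in SLCDS and 45.4, 46 and 63.9 FPKM in Control. Control replicate 3 alone made the groups overlap, since it exceeded every SLCDS library while the other controls lay below all 3. The log2 fold change was 0.15 (limma, adjusted p = 0.65) and 0.31 without that library (limma, adjusted p = 0.00316). TUBB6, a divergent beta-tubulin of non-neural tissues, had the same layout at lower levels, with 8.61, 9.29 and 9.2 FPKM in SLCDS and 7.75, 6.49 and 9.86 FPKM in Control. It was called higher only without Control replicate 3 among 19 alternative settings (log2 fold change 0.31; limma, adjusted p = 0.0127).

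TUBB2A and TUBB2B are neighbouring genes and near-identical copies. TUBB2A measured 42.5, 46 and 40.2 FPKM in SLCDS and 46.7, 43.6 and 56.1 FPKM in Control (log2 fold change -0.18; limma, adjusted p = 0.455). TUBB2B measured 23.4, 20.1 and 23.1 FPKM in SLCDS and 19.7, 17.5 and 24 FPKM in Control (log2 fold change 0.13; limma, adjusted p = 0.66). Both overlapped between groups, and TUBB2B was called higher without Control replicate 3 (log2 fold change 0.24; limma, adjusted p = 0.0319). Because the split between the copies is uncertain, their sum was read as well. It was 65.8, 66.1 and 63.3 FPKM in SLCDS and 66.4, 61.1 and 80.1 FPKM in Control, again overlapping.

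**Figure D2:**
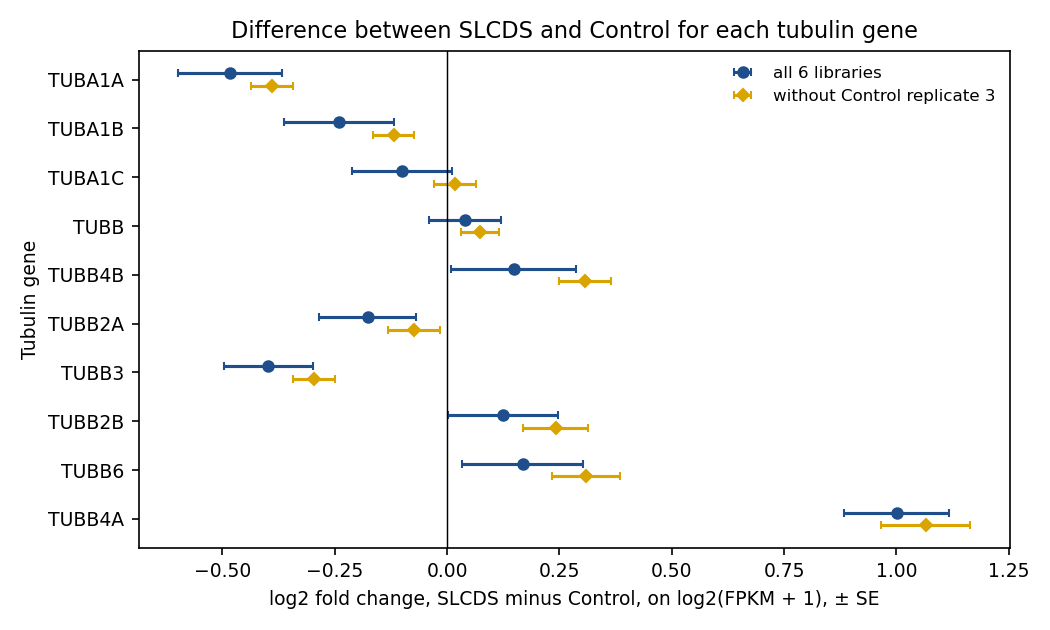
Log2 fold change on log2(FPKM + 1), SLCDS minus Control, with its SE for each tubulin gene, over all 6 libraries (blue circles) and without Control replicate 3 (yellow diamonds). TUBB4A stands at 1.00 and 1.06, while TUBA1A (-0.48 and -0.39) and TUBB3 (-0.40 and -0.30) lie to the left of 0 under both.

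The order of the levels was the same in both groups: TUBA1A, TUBA1B, TUBB, TUBB4B, TUBA1C, TUBB2A, TUBB3, TUBB2B, TUBB6 and TUBB4A, from 403 to 7.01 FPKM in SLCDS and from 566 to 3.03 FPKM in Control. In SLCDS only TUBA1C and TUBB2A overlapped among neighbours in that order. In Control the ranges of TUBB4B and TUBA1C, of TUBA1C and TUBB2A, and of TUBB2A and TUBB3 overlapped.

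The make-up of the tubulin mRNA was then read within each library, where a scaling factor common to all genes of a library cancels. A trend with transcript length, as in Control replicate 3, does not cancel between genes of unlike length. The transcripts of TUBB (2670 bases) and TUBB4A (2552 bases) are longer than those of TUBB3 (1769 bases) and TUBB4B (1637 bases). These shares and ratios describe the chosen genes and were not tested. TUBA1A made up 56.7%, 56.3% and 56.2% of the summed FPKM of the 3 alpha genes in SLCDS and 60.8%, 61.8% and 60% in Control, without overlap. Control replicate 3 had the lowest share of the controls and still lay above every SLCDS library. The TUBA1A to TUBA1B ratio was 1.54, 1.52 and 1.52 in SLCDS and 1.8, 1.88 and 1.74 in Control, again without overlap, with the limit that reads of these copies may have been split between them.

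Among beta genes TUBB held 57.2%, 56.5% and 57.1% of the summed FPKM of 7 genes in SLCDS and 57.4%, 57.5% and 52.8% in Control, the last in Control replicate 3. The TUBB3 share was 7.81%, 7.6% and 7.36% in SLCDS and 9.85%, 10.1% and 10.6% in Control. The TUBB4A share was 1.73%, 1.92% and 1.76% in SLCDS and 0.897%, 0.66% and 0.786% in Control. For both TUBB3 and TUBB4A the groups did not overlap. Against TUBB, TUBB3 gave ratios of 0.137, 0.134 and 0.129 in SLCDS and 0.172, 0.175 and 0.2 in Control. Against its close relative TUBB4B, TUBB4A gave ratios of 0.121, 0.137 and 0.114 in SLCDS and 0.0741, 0.0514 and 0.0528 in Control. Neither ratio overlapped between the groups. The TUBB4A to TUBB3 ratio, between a pair of beta-tubulins that are both abundant in brain, was 0.221, 0.253 and 0.240 in SLCDS and 0.0910, 0.0656 and 0.0745 in Control.

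**Figure D3:**
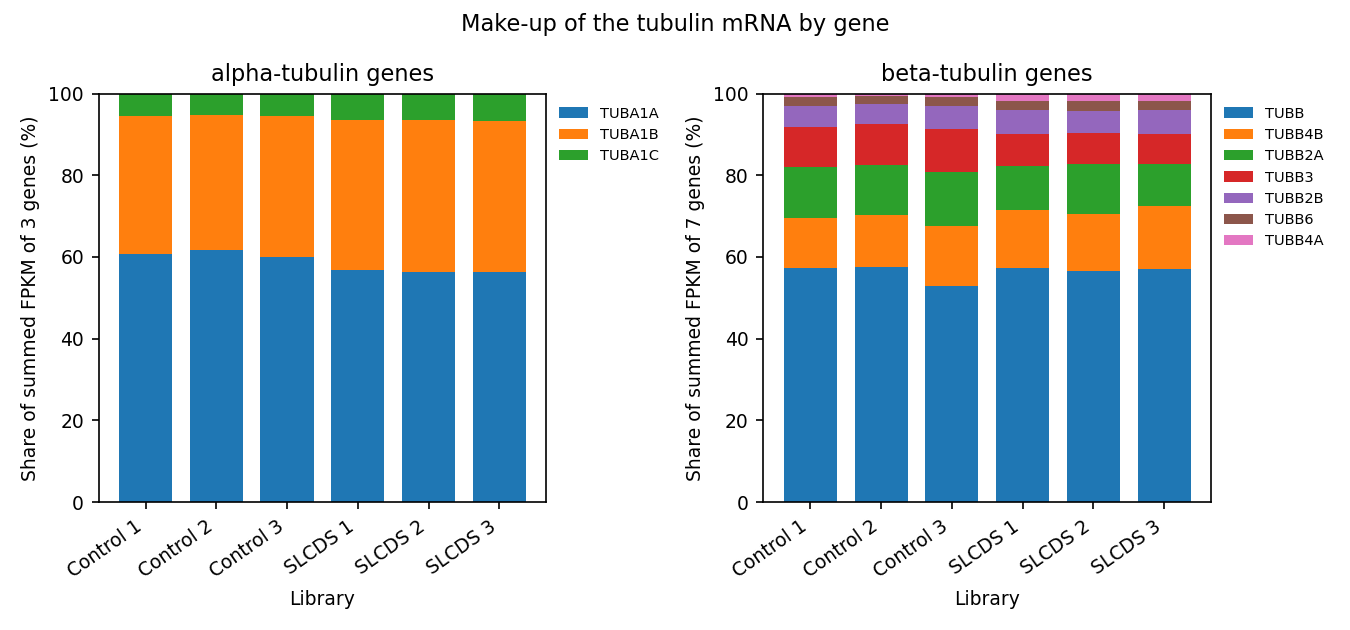
Share of the summed FPKM held by each gene in each library, for the 3 alpha genes (left) and the 7 beta genes (right), in percent. TUBA1A takes 60% to 61.8% of the alpha sum in Control and 56.2% to 56.7% in SLCDS, and the TUBB4A slice at the top of the right panel is 0.66% to 0.897% in Control and 1.73% to 1.92% in SLCDS.

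Summed over the 3 genes, alpha-tubulin stood at 754.4, 695.2 and 694.5 FPKM in SLCDS and 869.3, 853.6 and 1071 FPKM in Control, without overlap. The beta sum was 393.6, 377.9 and 395.8 FPKM in SLCDS and 374.9, 357.7 and 429 FPKM in Control, with overlap. The alpha to beta ratio was 1.92, 1.84 and 1.75 in SLCDS and 2.32, 2.39 and 2.5 in Control. The 10 genes together held 0.370%, 0.356% and 0.357% of all FPKM in SLCDS and 0.421%, 0.409% and 0.430% in Control.

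**Figure D4:**
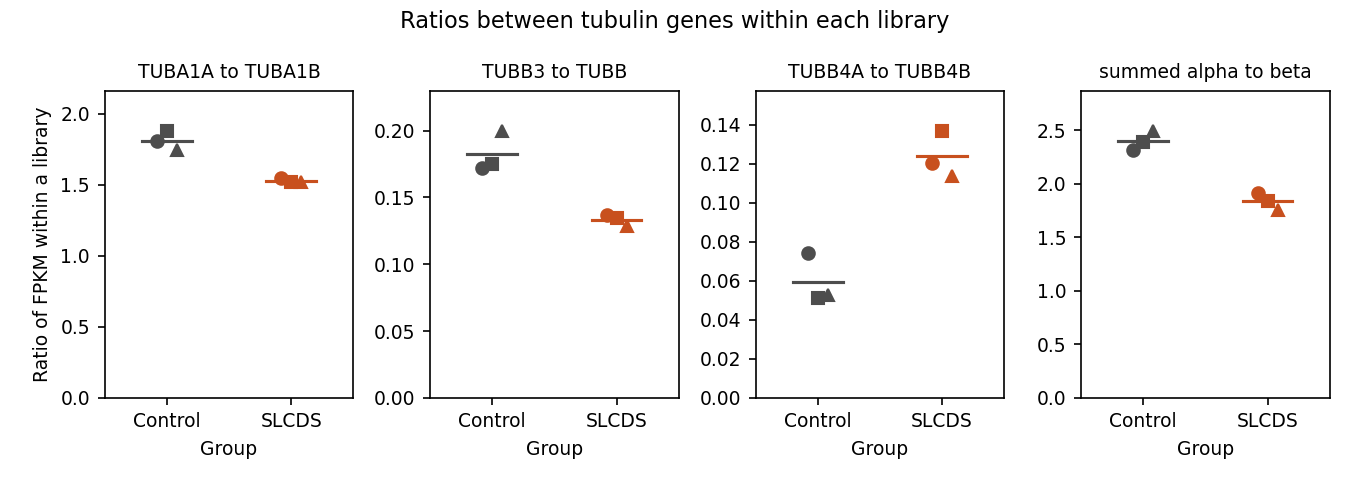
Ratios of FPKM within each library for TUBA1A to TUBA1B, TUBB3 to TUBB, TUBB4A to TUBB4B and summed alpha to summed beta, with a point per library and a bar at the mean of 3 libraries. In all 4 panels the groups do not overlap, and Control replicate 3 (triangle) is on the side of the other controls.

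Other genes of the tubulin pathway were read from 6 lists, as counts called over all libraries beside the 6.09% of all genes. Among other tubulins, limma called 0 of 5 tested members, with 2 at an unadjusted p under 0.05. Over all genes, 2139 of the 11506 tested were at an unadjusted p under 0.05 in limma. The gamma-tubulin genes TUBG1 and TUBG2, which nucleate microtubules, stood at 21.3 ± 0.932 and 36.5 ± 1.59 FPKM in SLCDS and 21.6 ± 3.92 and 42.3 ± 3.81 FPKM in Control (SD, n = 3 each). TUBA4A, an alpha-tubulin chosen here after its values were seen, lay at 1.3, 1.23 and 1.77 FPKM in SLCDS and 0.684, 0.753 and 0.876 FPKM in Control (limma, adjusted p = 0.0506) and was called higher without Control replicate 3 (limma, adjusted p = 0.0073). TUBA4A reached 1 FPKM only in SLCDS, so it passed the filter through the group where it is higher. Its p-values are not independent of that filter, and no conclusion is drawn from them. TUBB1, the platelet isotype, and TUBB8, the oocyte isotype, were under the filter, with TUBB8 at 0 FPKM in all libraries except SLCDS replicate 2.

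New tubulin is folded by prefoldin, the CCT chaperonin and the tubulin cofactors, and limma called 0 of these 21 genes, with 2 at an unadjusted p under 0.05. The most abundant by the mean over both groups, the prefoldin gene PFDN5 and the chaperonin gene CCT6A, stood at 133 ± 11.0 and 101 ± 3.45 FPKM in SLCDS and 154 ± 34.9 and 104 ± 6.3 FPKM in Control (SD, n = 3 each). Without Control replicate 3, 3 of the 21 were higher and 1 lower. The folding list had a median log2 fold change of -0.08, or 0.02 without that library.

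Of 19 tested enzymes that modify tubulin, 1 rose, 1 fell and 17 did not pass in limma, with 7 at an unadjusted p under 0.05. VASH1, a carboxypeptidase that removes the terminal tyrosine of alpha-tubulin, stood at 5.69, 5.91 and 5.67 FPKM in SLCDS and 3.6, 3.23 and 2.85 FPKM in Control, without overlap. It rose with a log2 fold change of 0.68 (SE 0.09; limma, adjusted p = 0.00492) and was called in 18 of 18 alternative settings. KIAA0895L, an older symbol of MATCAP1, encodes another enzyme that removes that tyrosine. It stood at 23.1, 23.2 and 22.4 FPKM in SLCDS and 27.8, 28.4 and 28.1 FPKM in Control, and fell by 0.28 on the log2 scale (SE 0.06; limma, adjusted p = 0.0393), a call kept in 10 of 19 alternative settings. So the 2 called enzymes, which both remove the terminal tyrosine of alpha-tubulin, moved in opposite directions. TTL, the ligase that adds the tyrosine back and was picked after its values were seen, measured 3.43, 3.45 and 3.49 FPKM in SLCDS and 3.59, 3.57 and 2.93 FPKM in Control (limma, adjusted p = 0.882). Without Control replicate 3, 7 of the 19 were lower and 1 was higher, where 11.8% of all tested genes were lower and 16.0% higher.

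Of tubulin mRNA autoregulation genes and stathmins, which sequester tubulin dimers, limma called 0 of 5 over all libraries, with 1 at an unadjusted p under 0.05. STMN1, the stathmin of dividing cells, stood at 24.9, 22.9 and 22.4 FPKM in SLCDS and 17.8, 17.3 and 20.7 FPKM in Control, without overlap (log2 fold change 0.32; limma, adjusted p = 0.0972), and was higher without Control replicate 3 (log2 fold change 0.39; limma, adjusted p = 0.000542). CNOT11, a subunit of the deadenylase that takes part in tubulin mRNA decay, was at 22.4 ± 0.853 and 23.2 ± 0.804 FPKM in SLCDS and Control (SD, n = 3 each).

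In the nucleation list limma called 0 of 21 genes, with 3 at an unadjusted p under 0.05. Its most abundant members by the mean over both groups, MZT2B and TUBGCP2, both parts of the gamma-tubulin ring complex, were at 107 ± 6.49 and 29.9 ± 1.01 FPKM in SLCDS and 127 ± 45.9 and 36.5 ± 4.49 FPKM in Control (SD, n = 3 each). HAUS7, an augmin subunit named after its values were seen, measured 16.5, 16.6 and 14.5 FPKM in SLCDS and 8.11, 8.24 and 12.5 FPKM in Control (limma, adjusted p = 0.0507, and 9.36e-06 without Control replicate 3). Among 15 tested plus-end, minus-end and severing proteins limma called 0, with 1 at an unadjusted p under 0.05. The plus-end tracker MAPRE1 had means of 51 ± 1.67 and 54 ± 0.512 FPKM in SLCDS and Control (SD, n = 3 each). Without Control replicate 3, limma called 4 of 21 folding, 4 of 21 nucleation, 3 of 15 end-binding and severing, 1 of 5 autoregulation or stathmin, 1 of 5 other tubulin and 8 of 19 tubulin-modifying genes, against its background of 27.7%. The other tubulin called there was TUBA4A, which passed the filter only through SLCDS.

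**Figure D5:**
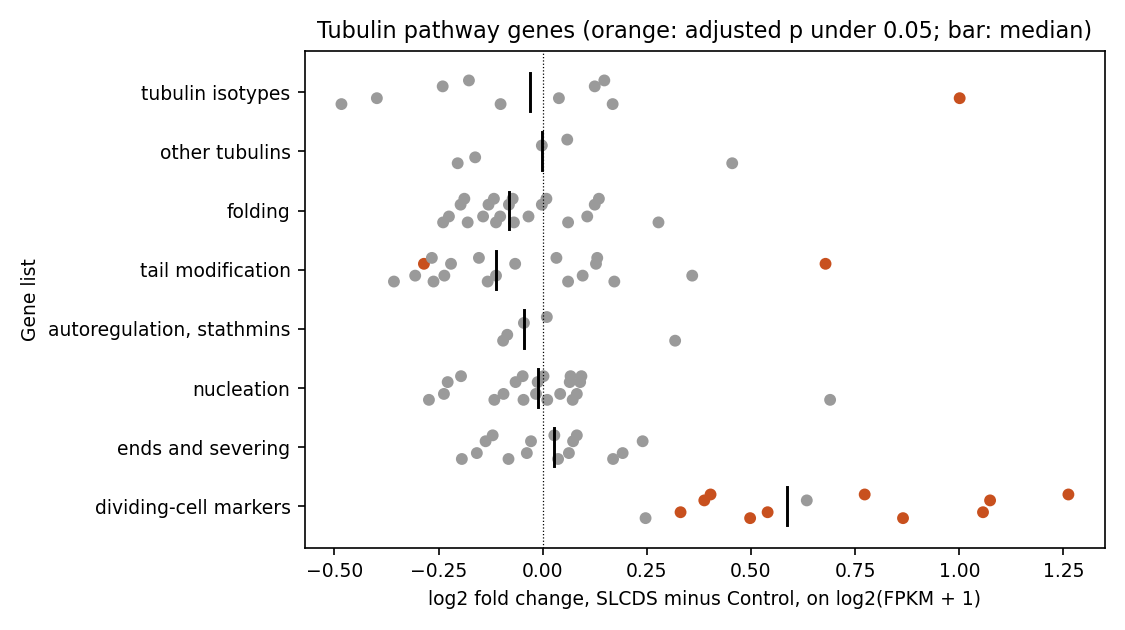
Log2 fold change on log2(FPKM + 1), SLCDS minus Control, of each tested gene by list over all 6 libraries; orange points have a limma adjusted p under 0.05 and black bars are list medians. TUBB4A (1.00) and VASH1 (0.68) are the orange points to the right in the tubulin pathway lists, while 10 of 12 markers of dividing cells are orange.

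The genes whose pattern over the 6 libraries was most like that of TUBB3, among 8375 genes outside the family with a mean of at least 5 FPKM, were MESD, ANXA2, CPNE1, SCRIB and TAF1C, with Pearson correlations of 0.9986, 0.9977, 0.997, 0.9968 and 0.9955 on log2(FPKM + 1). Within the family TUBA1A was the most like TUBB3 (0.993). These correlations are a description of 6 libraries that share the groups and the offset of Control replicate 3. ANXA2, a membrane-binding annexin, showed the pattern at 73.5, 68.6 and 71.4 FPKM in SLCDS and 92.7, 90.9 and 115.6 FPKM in Control and was called lower (limma, adjusted p = 0.0456), in 10 of 19 alternative settings. MESD, CPNE1, SCRIB and TAF1C were not called over all libraries (limma, adjusted p = 0.181, 0.154, 0.069 and 0.154) and were called lower without Control replicate 3.

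Markers were read beside the tubulin values. The glioma and astrocyte markers GFAP, VIM and SOX2 were expressed in all libraries, at 135 ± 7.31, 1524 ± 39.7 and 376 ± 10.2 FPKM in SLCDS and 339 ± 23.3, 1507 ± 191 and 431 ± 12.7 FPKM in Control (SD, n = 3 each), and GFAP fell (limma, adjusted p = 0.000596). In that list 2 of 7 tested members fell, against 1.82% of all tested genes, and 0 rose. The other that fell was the gap junction gene GJA1, with means of 58.8 ± 1.1 FPKM (SLCDS) and 118 ± 13 FPKM (Control) (SD, n = 3 each), called in 19 of 19 alternative settings. Without Control replicate 3, 4 of the 7 were lower (GFAP, GJA1, SOX2 and SLC1A3) and 2 were higher (NES and S100B), where 11.8% of tested genes were lower and 16.0% higher. The list's summed level ranged from 2410 to 2496 FPKM in SLCDS and from 2543 to 2943 FPKM in Control. AQP4, a water channel of mature astrocytes, was at 0.243 FPKM or less. Of 10 neuronal markers 3 passed the filter on low values and 0 were called by limma, with 0 at an unadjusted p under 0.05. All 3 were called without Control replicate 3, against 27.7% of tested genes. The neurofilament gene NEFL and the synaptic vesicle gene SYP were higher, and MAP2, a dendritic microtubule-associated protein, was lower. SYP reached 1 FPKM only in SLCDS, so it passed the filter through the group where it is higher. Its call is not independent of that filter, and no conclusion is drawn from it. DCX and RBFOX3 were at 0.319 ± 0.00341 and 0.011 ± 0.0037 FPKM in SLCDS and 0.330 ± 0.134 and 0.00687 ± 0.0119 FPKM in Control (SD, n = 3 each), and MAP2 at 14.7 ± 0.485 and 18.5 ± 4.63 FPKM. NEFL stood at 28.9 ± 0.480 and 26 ± 3.05 FPKM. Of the neuronal list 4 members were higher in SLCDS without overlap between the groups, all at low levels: SYP at 1.08 ± 0.109 and 0.714 ± 0.272 FPKM, SYN1 at 0.887 ± 0.103 and 0.529 ± 0.0777 FPKM, ELAVL4 at 0.130 ± 0.0378 and 0.0540 ± 0.0209 FPKM in SLCDS and Control (SD, n = 3 each), and STMN2 at 0.0590, 0.180 and 0.173 FPKM in SLCDS and listed at 0 in all 3 Control libraries. SYN1, ELAVL4 and STMN2 were under the filter and not tested. Of all tested genes, 29.1% had groups without overlap, in either direction, a share that leaves out genes under the filter. The summed neuronal markers ranged from 46.1 to 46.5 FPKM in SLCDS and from 44 to 49.2 FPKM in Control.

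Markers of dividing cells, which build their spindle from tubulin, rose in 10 of 12 cases and fell in none, against a background of 4.28% of tested genes called higher. The calls were not equally firm. CCNB2 was called in 19 of 19 alternative settings, CCNB1 (limma, adjusted p = 0.0495) in 7 of 19 and BUB1 (limma, adjusted p = 0.0481) in 4 of 18. MKI67 went from 2.27 ± 0.748 to 6.71 ± 0.412 FPKM (SD, n = 3 each; limma, adjusted p = 0.00593), and TOP2A from 8.48 ± 1.98 to 16 ± 1.03 FPKM (limma, adjusted p = 0.0207). The TOP2A call was lost in 5 of 19 alternative settings, with adjusted p of 0.0604 in limma when scaled to equal sums, 0.0777 to 0.107 without an SLCDS replicate and 0.0544 without Control replicate 2. The summed list ranged from 92 to 96.6 FPKM in SLCDS and from 54.4 to 60.1 FPKM in Control. Of fibroblast markers 3 of 7 and of leukocyte markers 1 of 6 passed the filter, with DCN at 0.0344 FPKM or less, LUM at 0.156 FPKM or less and PTPRC at 0.0485 FPKM or less. Of the 3 tested fibroblast markers 1 was called higher, PDGFRB, against 4.28% of all tested genes. Its group means were 1.77 ± 0.0982 FPKM with SLCDS against 0.36 ± 0.0715 FPKM without (SD, n = 3 each). No Control library reached 1 FPKM for PDGFRB, so only the group where it is higher brought it past the filter. The PDGFRB call therefore depends on that filter, and nothing is concluded from it. The summed fibroblast list ranged from 391.7 to 397.5 FPKM in SLCDS and from 395.7 to 437.2 FPKM in Control. Most of that sum was the collagen gene COL1A2, with means of 365 ± 3.45 FPKM (SLCDS) and 374 ± 17.1 FPKM (Control) (SD, n = 3 each), and THY1 stood at 26.9 ± 0.710 and 35.6 ± 5.5 FPKM. The summed leukocyte list ranged from 3.63 to 4.81 FPKM in SLCDS and from 2.83 to 3.38 FPKM in Control, most of it from the lysosomal gene CD68, at 4.05 ± 0.641 and 2.79 ± 0.106 FPKM (SD, n = 3 each), without overlap (limma, adjusted p = 0.0737, and 0.0176 without Control replicate 3). The markers named here other than MKI67, TOP2A, GFAP, VIM, SOX2, MAP2, DCX and RBFOX3 were picked after their values were seen, and the part of any of these lists in the tubulin values was not tested.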

How the data were processed

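Per the labels' protocols, total RNA extracted with TRIzol went into the VAHTS Universal V6 kit. The authors deposited 1 file of FPKM values per library, on a linear scale. The sources used here do not name the aligner or counting tool, and GRCm38 and mm10, which are mouse builds, stand in the submitters' processing notes although the symbols are human (16528 of 16832 match RefSeq), so no coordinates are printed. The sample labels gave the groups and replicate numbers. The genes and lists were chosen with earlier results of these data known. The filter required an FPKM of 1 or higher in any 3 libraries and left 11506 genes. Values of log2(FPKM + 1) were fitted with limma 3.58.1 (R 4.3.3, trended variance prior), and 2-sided p-values were adjusted by Benjamini-Hochberg over that set. No libraries were merged as duplicates: within groups, pairs gave a median chi-square of at least 1.12 over abundant genes, where counting alone gives 0.45.

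Named genes are the 10 tubulins, up to 4 called members of each pathway list with the largest change (lists with under 2 calls were filled to 2 by abundance), 8 fixed markers and the 5 genes most like TUBB3. Exceptions are said to be chosen after their values were seen, and TUBB1 and TUBB8 are named only as low. A gene that the rule named and some coding ends are not reported here. Depth was read from 303 of 1631 low genes whose values were whole steps within 0.02 fragments, and from 15 of 43 single-transcript genes that agreed within 5%, and is approximate. In simulated data of 11506 genes the fit recovered 74.8% of genes changed by 0.5 and 100% of those changed by 1 on the log2 scale, with 3.7% false calls. The simulation gave all libraries the same kind of noise, with none set apart like Control replicate 3. Changes were put only into genes more abundant than TUBB4A, so these shares do not carry over to TUBB4A or to data holding that library. Sequences and overlaps came from GENCODE release 29, read with Biopython 1.88 and Python 3.11.15. Alternatives were pseudocounts of 0.1 and 0.5, other filters, 4 scalings, other variance priors, a replicate block, removal of each library's trend with transcript length and GC content, and each library left out.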

Additional observations from a re-analysis of the deposited data

How the results depend on the processing

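Of 190 values of the 10 tubulin genes over 19 alternatives, 169 kept their direction and side of the threshold, 20 passed where they had not, none lost a call and 1 changed sign. The number of tubulin genes called was 1 over all libraries, 2 without a trend in the variance prior, 3 when scaled to equal sums, by the upper quartile or by quantiles, 5 with the length and GC trend removed, with or without a replicate block (background 18.1% without the block), and 1 to 6 with a library left out, the 6 without Control replicate 3. Of 11506 tested genes, 492 were called higher over all libraries and 504 without a trend in the variance prior. Scaling to equal sums gave 418 called higher, the upper quartile 516 and quantiles 518. Genes called higher were 196 with a mean FPKM of at least 5, 1069 with the length and GC trend removed, 850 with that and a replicate block, and 210 to 1838 with a library left out. Genes called lower were 209 over all libraries, 217 without a trend in the variance prior, 153 when scaled to equal sums and 192 by the upper quartile. They were 326 with quantile normalization, 128 with a mean FPKM of at least 5 and 109 with a replicate block. With the length and GC trend removed 1012 were lower, with that and the block 740, and with a library left out 66 to 1353. Fewer samples remain when a library is left out; otherwise the cause was not tested.

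Whether equal replicate numbers pair the samples could not be decided. Deviations from the group means correlated at -0.326, 0.36 and 0.065 for numbers 1 to 3, and 1 of 3 SLCDS samples correlated best with its own number. Deviations of 3 samples cancel within a group, and those of Control replicates 1 and 2 were nearly alike. With SLCDS replicate 1 they correlated at -0.326 and -0.312. With the replicate block 1 tubulin gene was called, and 346 genes were higher.

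Values near 0 changed sign, and so did the larger one of MZT2B. The log2 ratio of summed beta-tubulin was 0.01 over all libraries, -0.005 with median-ratio scaling and -0.044 to 0.087 with a library left out. TUBA1C went from -0.10 to 0.018 without Control replicate 3 (-0.179 to 0.018 with each library left out). MZT2B went from -0.196 over all libraries to 0.081 without Control replicate 3 (-0.352 to 0.081 with each library left out). CCT6A was 0.004 with quantile normalization and -0.074 to 0.011 with a library left out, and VIM -0.068 with quantile normalization and -0.04 to 0.125 with a library left out. TUBG1 was 0.029 scaled to equal sums, 0.025 by the upper quartile, 0.023 by quantiles, 0.055 with the length and GC trend removed with or without a replicate block, and -0.086 to 0.136 with a library left out. The shares of TUBA1A, TUBB3 and TUBB4A kept their direction under quantile normalization and with each of the 6 libraries left out; the other scalings cannot change a share. Depth limits TUBB4A most, at about 98 fragments in its lowest library.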
